A study of Mus musculus with 12 samples.

Results

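Lymphatic endothelium of mouse ear skin, taken over all 3 of its sorted subtypes, was compared with blood endothelium from the same tissue. All 12 arrays of the series entered the comparison. The 9 lymphatic arrays formed 3 groups of 3, collecting vessel cells (col LEC), pre-collecting vessel cells (pre-col LEC) and capillary cells (cap LEC), and the mean of the 3 group means was set against the mean of the 3 blood endothelial (BEC) arrays. Of 19684 genes tested, 2292 were called in the same direction in each lymphatic group on its own, and these shared genes are described below.

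The animals were C57BL6 mice with the transgene Tg(Prox1-EGFP)KY221Gsat, a Prox1-GFP reporter in which a Prox1 genomic fragment drives a green fluorescent protein. Every group, BEC included, came from ear skin of these reporter mice, whose age the sources give once as adult and once as 5 weeks. Endothelial cells were pulled out with beads against PECAM1 and live cells were sorted on podoplanin (PDPN), Prox1-GFP and LYVE1. The lymphatic gate was split by surface LYVE1 into high (cap LEC), intermediate (pre-col LEC) and low or absent (col LEC), and BEC carried PECAM1 without PDPN, GFP or LYVE1. BEC were not divided further, so arterial, capillary and venous cells were pooled in that group. The labels call the 3 arrays of a group biological replicates without saying whether each came from 1 mouse or a pool, so the p-values measure the spread between these samples only.

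Lymphatic vessels begin as blind-ended capillaries that take up fluid, proteins, lipids and immune cells and drain through pre-collecting into valved collecting vessels. Their endothelium arises largely from embryonic veins, where PROX1, switched on with the help of SOX18 and COUP-TFII, imposes the lymphatic programme, and it depends on VEGF-C acting through the receptor VEGFR-3 (Flt4). Blood endothelium instead exchanges gas, glucose and fatty acids with the tissue and captures leukocytes from the flowing blood.

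Values are log2 after RMA, a procedure that gives every array the same spread of values and combines the probes of a row into 1 value, so a difference of 1 is a 2-fold difference. A gene was called at a Benjamini-Hochberg adjusted p under 0.05 in limma, fitted over all 12 arrays and all genes tested. Errors after a log2 fold change are limma's standard errors. Array medians lay between 6.06 and 6.17. Correlations across genes were 0.973 to 0.989 between arrays of different LEC groups, 0.971 to 0.988 within a group and 0.904 to 0.923 between an LEC and a BEC array. With 3 arrays a group, precision is bounded by their number.

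The genes behind the sort checked the labels. Prox1 was at 12.38, 12.53 and 12.60 in the 9 LEC arrays (lowest, median and highest) and at 7.55, 6.70 and 6.55 in BEC replicates 1, 2 and 3. Pdpn was at 11.73, 12.08 and 12.22 against 7.32, 6.86 and 7.24, and Lyve1 at 10.20, 12.68 and 13.15 against 7.30, 6.65 and 6.57. Pecam1 differed least, at 12.16, 12.23 and 12.28 against 12.62, 12.51 and 12.40. It was still called lower in LEC and shared, with no overlap of arrays. With replicates 1 and 3 of every group alone that call was lost (-0.29, limma adjusted p = 0.0821). Of 8 blood endothelial markers (Flt1, Vwf, Cd36, Aqp7, Gpihbp1, Plvap, Ackr1 and Sox17), all were lower in the lymphatic mean. The general endothelial genes Cdh5 and Tie1 had their lowest array at 12.64 and 11.23. Without BEC replicate 1 and pre-col LEC replicate 1, Cdh5 was lower in LEC (-0.42, limma adjusted p = 0.00358) and Tie1 was not called (0.10). Of the 2 TIE receptor genes, Tie1 and Tek, 1 was called lower. Erg, another marker set for this check, is not described here.

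Some arrays had raised levels of genes typical of the other gate or of neighbouring cells, whose source was not tested. In BEC replicate 1 the lymphatic gene Mmrn1 stood at 9.84, against 6.55 and 6.52 in the other BEC arrays. In pre-col LEC replicate 1 the blood capillary gene Sparcl1 was at 10.42, the pericyte gene Rgs5 at 10.21 and Acta2, encoding an actin of smooth muscle, at 10.21. In the other 8 LEC arrays these 3 genes reached at most 8.97, 8.91 and 8.0. These 2 arrays are called mixed below. Leaving out both arrays gave 4248 called genes in place of 4456 and 2198 shared genes in place of 2292. Cap LEC replicate 1 was raised as well and stayed in that fit. Its mean level was 8.62 for blood capillary genes, against 8.27 and 8.20 in the other cap LEC arrays. For mural markers it was 7.28, against 6.86 and 6.79. Fibroblast markers had a mean level of 7.80 in col LEC replicate 1, against 7.05 and 7.18 in its group, and that array also stayed in the fit. In pre-col LEC replicate 1 the fibroblast level was 8.36, above the BEC arrays at 7.60 to 7.82. Leaving out cap LEC replicate 1 alone gave 4356 called and 2162 shared genes.

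Markers of mural cells, the pericytes and smooth muscle cells around vessels, moved with the comparison. Of 14 tested, 13 were lower in LEC than in BEC. Their mean level was 8.74 to 8.94 in the BEC arrays, 6.90 to 6.96 in col LEC, 7.05 to 7.92 in pre-col LEC and 6.79 to 7.28 in cap LEC. Rgs5 had a log2 fold change of -3.50 ± 0.49 (adjusted p = 0.000217), the PDGF receptor gene Pdgfrb -3.37 ± 0.29 and Acta2 -2.84 ± 0.50, the last overlapping between classes through pre-col LEC replicate 1. Without the 2 mixed arrays 13 of 14 were still lower. The part that mural RNA plays in the genes lower in LEC was not tested. Of markers of other cells, 2 of 10 fibroblast, 1 of 11 macrophage and dendritic, 2 of 6 erythroid and platelet and 3 of 7 keratinocyte genes were lower in LEC, against 10.6% of all genes. These counts moved with single arrays: 6 fibroblast genes were lower without pre-col LEC replicate 1 and 5 without both mixed arrays, and 4 erythroid and platelet genes without BEC replicate 1. The part of these cells in the results was not tested. Of T and NK markers 1 of 4 was higher, of Schwann cell and melanocyte markers 1 of 6, and none of 3 neutrophil and mast cell or 6 adipocyte and muscle genes was called. Among the lower genes were the platelet chemokine gene Ppbp (-1.18 ± 0.24) and the keratinocyte gene Sfn (-1.11 ± 0.13). In bulk samples such as these, fewer cells of a type and less RNA per cell cannot be told apart.

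Over all 19684 genes, 4456 (22.6%) were called between the lymphatic mean and BEC, with 2371 (12%) higher and 2085 (10.6%) lower in LEC. At least 2-fold differences numbered 421 (2.14%) higher and 579 (2.94%) lower, and at least 4-fold ones 123 (0.625%) and 181 (0.92%). At 16-fold or more, 12 genes (0.061%) were higher and 25 (0.127%) lower. Taken one group at a time against the same BEC arrays, 3198 genes (16.2%) were called in col LEC, of which 1635 (8.31%) were higher and 1563 (7.94%) lower. In pre-col LEC 3060 (15.5%) were called, 1453 (7.38%) higher and 1607 (8.16%) lower, and in cap LEC 4075 (20.7%), 2194 (11.1%) higher and 1881 (9.56%) lower. The genes called in all 3 groups were 1061 higher (5.39%) and 1231 lower (6.25%). All 9 LEC arrays lay beyond all 3 BEC arrays in 1038 of the higher and 1211 of the lower shared genes, a separation seen upward in 8.41% and downward in 9.43% of all genes. The median log2 fold change was 0.80 in the higher and -0.90 in the lower shared genes.

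**Figure D1:**
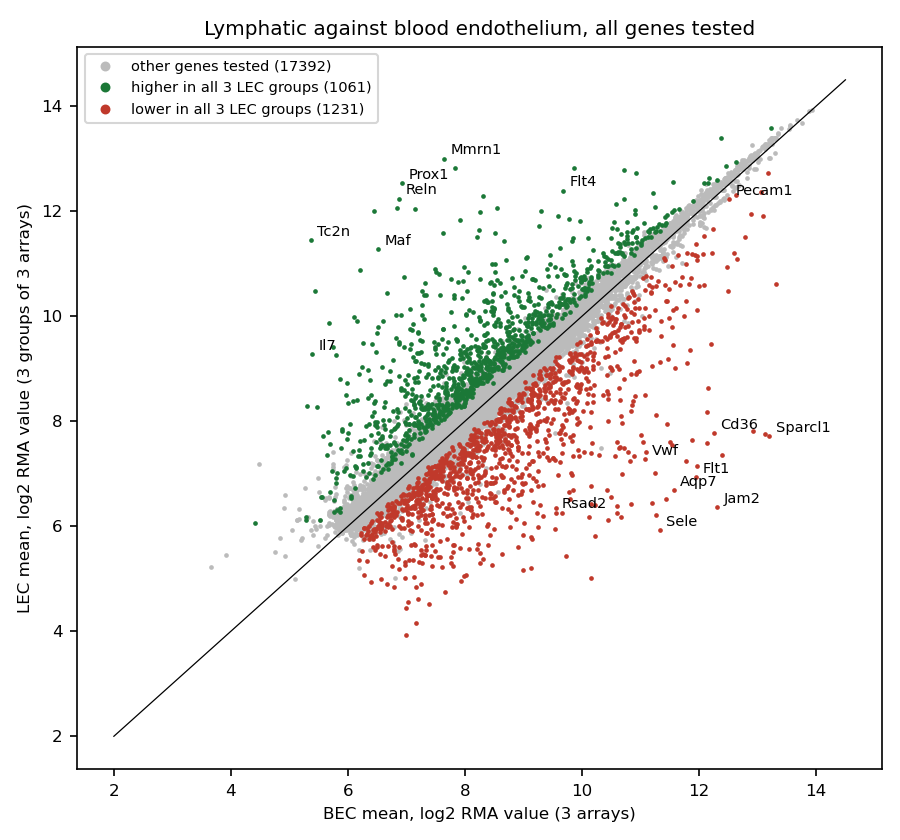
Mean log2 RMA value of each gene tested in the 3 LEC groups (vertical axis) against its mean in the 3 BEC arrays (horizontal axis), with the line of equal level. The 1061 genes higher in all 3 LEC groups are green, the 1231 lower ones red and the other 17392 grey, and of the genes named in the text Tc2n (6.10) and Jam2 (-5.95) differ most in each direction.

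The genes with the largest differences are described first. Tc2n, a protein with paired C2 membrane-binding domains, was at 11.31, 11.47 and 11.58 in LEC (lowest, median and highest array) and at 5.66, 5.65 and 4.76 in BEC. The LEC arrays sat in a band of under 1 unit, all of them above every BEC array. Its log2 fold change was 6.10 ± 0.16 (limma adjusted p = 1.44e-10). The BEC level of Tc2n, like the LEC level of Jam2 below, lay at or near the array medians or under them, where a row may be at background, so differences against such levels are sizes of these values and not exact folds.

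Sema3d, a secreted semaphorin that steers axons and vessels, was at 11.73, 11.95 and 12.22 in LEC and at 7.49, 5.44 and 6.39 in BEC. Reln encodes reelin, a large secreted glycoprotein best known for positioning neurons, and was at 11.75, 12.39 and 12.55 against 7.81, 6.31 and 6.54. Mmrn1, a multimeric glycoprotein of platelets and lymphatic endothelium, was at 12.91, 12.99 and 13.09 against 9.84, 6.55 and 6.52. In each of these BEC replicate 1 was the highest BEC array and still lay below all LEC arrays. The log2 fold changes were 5.56 ± 0.29 for Sema3d (adjusted p = 3.13e-08), 5.35 ± 0.23 for Reln (adjusted p = 6.16e-09) and 5.36 ± 0.53 for Mmrn1 (adjusted p = 1.01e-05). Without the 2 mixed arrays they were 6.09, 5.84 and 6.46.

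Pkhd1l1, a large membrane protein related to fibrocystin, was at 9.91, 10.52 and 10.99 in LEC against 6.05, 4.99 and 5.30 in BEC. Pard6g, an adaptor of the PAR polarity complex, was at 12.69, 12.86 and 12.95 against 8.45, 7.29 and 7.74. Maf, a leucine zipper transcription factor active in lymphatic endothelium, was at 11.10, 11.23 and 11.50 against 6.73, 6.17 and 6.65. That no LEC array overlapped a BEC array in these genes was a condition of their choice. Their log2 fold changes were 5.04 ± 0.16, 5.00 ± 0.17 and 4.75 ± 0.10 (adjusted p = 6.11e-10, 9.84e-10 and 2.83e-11).

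Il7, the cytokine that keeps lymphocytes alive, was at 9.13, 9.28 and 9.57 in LEC and 5.40, 5.28 and 5.49 in BEC, a difference of 3.89 ± 0.08 (adjusted p = 1.84e-11). The peptide gene Nts (neurotensin) differed by 3.87 ± 0.17, the fibrinogen-like Fgl2 by 3.98 ± 0.09 and the copper ferroxidase gene Cp (ceruloplasmin) by 3.96 ± 0.21. Tnfaip8l3, a carrier of phosphoinositide lipids, differed by 4.18 ± 0.09, the matrix protein gene Abi3bp by 3.92 ± 0.14 and Fam180a by 3.79 ± 0.17. None of these 14 leading genes was called among the LEC groups by limma's F-test, with adjusted p between 0.138 for Pkhd1l1 and 0.996 for Tc2n and Mmrn1. That test called 0.965% of all genes, so the lack of a call in 14 genes does not show equal levels.

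On the other side were genes lower in lymphatic cells. Jam2, a junctional adhesion molecule, was at 6.01, 6.07 and 7.57 in LEC (lowest, median and highest) and at 12.53, 12.35 and 12.06 in BEC. The highest LEC value was pre-col LEC replicate 1, and no array overlapped. The log2 fold change was -5.95 ± 0.30 (adjusted p = 2.14e-08).

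Sele, encoding E-selectin, on which leukocytes roll, was at 5.30, 5.67 and 7.52 against 11.69, 11.06 and 11.24 (-5.41 ± 0.26, adjusted p = 1.78e-08). Cxcr4, the receptor of the chemokine CXCL12, was at 5.86, 6.19 and 6.60 against 10.96, 11.49 and 11.37 (-5.06 ± 0.15, adjusted p = 3.66e-10). Sparcl1, a matricellular protein, was at 6.21, 7.18 and 10.42 against 13.32, 13.20 and 13.09 (-5.48 ± 0.60, adjusted p = 2.32e-05). Its LEC values were the most scattered of the leading genes, and without the 2 mixed arrays its log2 fold change was -5.72.

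The apelin ligand and receptor genes Apln and Aplnr, which act in growing vessels, were both lower. Aplnr, the receptor, was at 6.95, 7.23 and 8.01 in LEC against 12.16, 12.52 and 12.48 in BEC (-5.04 ± 0.18, adjusted p = 1.43e-09). Apln, the ligand, was at 5.96, 6.35 and 7.03 against 10.41, 11.88 and 11.29 (-4.75 ± 0.26, adjusted p = 4.42e-08). Flt1, which encodes VEGFR-1, was at 6.51, 6.80 and 7.86 against 12.13, 11.86 and 11.86 (-5.01 ± 0.21, adjusted p = 5.23e-09). In all 3 genes the classes were apart, as the choice of leading genes required.

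The other leading genes were the glycerol and water channel gene Aqp7 (-4.88 ± 0.13), Kitl, the ligand of the receptor KIT (-4.92 ± 0.28), the focal adhesion adaptor gene Lims2 (-4.81 ± 0.16), Entpd1, an ectonucleotidase that removes extracellular ATP and ADP (-4.47 ± 0.18), and Tmem255b (-4.54 ± 0.12). The surface protein genes Ly6c2 (-5.37 ± 0.48) and Ly6c1 (-5.11 ± 0.30) are close copies that may share probes, so that each is uncertain as a single gene. In pre-col LEC replicate 1 they reached 10.25 and 9.37. By the F-test none of the 14 genes was called among the LEC groups, with adjusted p of 0.287 or more, against 0.965% of all genes called.

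**Figure D2:**
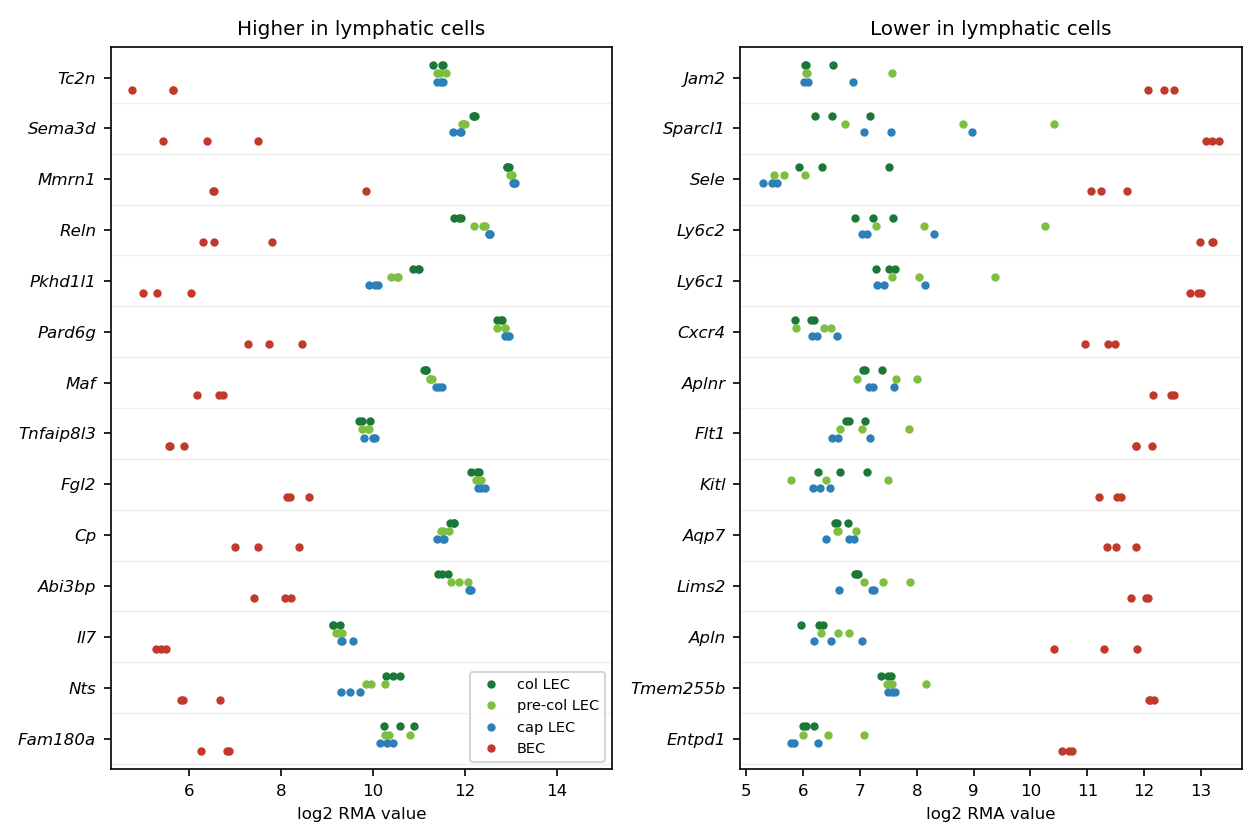
Log2 RMA value on each array for the 14 genes most strongly higher (left) and the 14 most strongly lower (right) in lymphatic cells, with 1 point per array coloured by group. The LEC points lie apart from the BEC points in every gene because only genes without overlap were chosen. The BEC point at 9.84 in Mmrn1 is BEC replicate 1, and the pre-col LEC points at 10.42 in Sparcl1 and 10.25 in Ly6c2 are pre-col LEC replicate 1.

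The genes were next read through 25 lists of endothelial pathways drawn from general knowledge. Earlier results of these data were known when the lists were chosen, so their counts describe these data and are no independent support. Of 791 distinct genes on all lists and families, 727 had a row of their own and 640 passed the filter on dim genes. Of the other 87 with a row, none was above the median of all rows on as many as 3 arrays. A list is described by its called members and its median log2 fold change, which for all genes tested was -0.015. Of all genes tested 22.6% were called, 12% higher and 10.6% lower, and 5.39% were shared higher and 6.25% shared lower. Each of the 25 lists but cell cycle (10%) had a larger called share, up to 96.15% for interferon response. A share above that of all genes therefore does not set a list apart. The number of called members that are shared by all 3 LEC groups follows, higher first where both are given. Of the called genes named among the results, Cdh5, Tie1 and Tek aside, all were shared but Acta2, Adm, Calcrl, Fzd8, Dkk2, Lef1, Ackr2, Ackr3, Nusap1, Tyms and Slco2a1.

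Lymphatic identity genes came first. Of 19 tested, 14 were higher in LEC, 0 lower, and the median was 1.65, with all 14 shared by the 3 groups; Prox1, Pdpn and Lyve1 are among them because of the sort. Flt4, the receptor for VEGF-C, was at 12.01, 12.37 and 12.72 in LEC and at 9.64, 9.57 and 9.84 in BEC (2.70 ± 0.09, adjusted p = 6.42e-10). The nuclear receptor gene Nr2f2 (COUP-TFII) was at 11.24, 11.48 and 11.74 against 9.95, 10.08 and 9.48, a difference of 1.65 ± 0.11 (adjusted p = 2.76e-07). Of genes of valve and collecting vessel formation, Foxc2 (0.99 ± 0.11), Nfatc1 (1.30 ± 0.07) and Itga9 (1.50 ± 0.09) were higher as well. The first 2 were named after their values were seen. Such genes did not all go this way: of 14 listed for lymphatic capillary or collecting vessel features, 9 were higher, 3 lower and 2 not called. Not called were Sox18 (-0.06), Klf11 (0.03), Gata2 (0.04), Hhex (0.14) and Nrp2 (0.41, adjusted p = 0.055), of which Sox18 and Gata2 act in blood endothelium too.

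Endothelial transcription factors were split, with 19 of 55 higher and 20 lower (median 0.04, shared 17 and 11). After Prox1 and Maf, the highest were the forkhead gene Foxp2 (2.34 ± 0.09, adjusted p = 1.33e-09) and the homeobox gene Zfhx3 (1.72 ± 0.15). Foxp2 was at 7.77, 8.25 and 8.98 in LEC and 6.18, 5.78 and 6.06 in BEC, and it also differed among the LEC groups (F-test adjusted p = 0.00143), with 2.87 in col, 2.26 in pre-col and 1.89 in cap LEC against BEC. The lowest were Sox17, a factor of arterial fate (-2.88 ± 0.10), Mecom (-2.17 ± 0.08), Meox2 (-2.15 ± 0.12) and Ebf3 (-1.94 ± 0.11). Sox17 was at 6.21, 6.40 and 6.74 against 9.33, 9.39 and 9.12 with no overlap. Paralogues parted in the MEOX pair, where Meox1 was higher (0.75 ± 0.09) and Meox2 lower.

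Blood capillary genes were the most depleted list. None of 23 was higher and 21 were lower, with a median of -2.56 and 19 shared by all 3 groups. Cd36, a fatty acid translocase, was at 6.56, 7.65 and 9.13 in LEC and at 12.41, 12.42 and 11.93 in BEC (-4.47 ± 0.32, adjusted p = 5.2e-07). The tip cell gene Esm1 (-2.38 ± 0.10) and the water channel gene Aqp1 (-2.70 ± 0.08) were lower too. Outside the calls were Kdr, the gene of VEGFR-2, at -0.12 ± 0.07 (adjusted p = 0.274) and Btnl9 at 0.27 ± 0.11 (adjusted p = 0.115). Kdr was at 11.80, 11.95 and 12.09 in LEC and 12.12, 12.08 and 12.03 in BEC, so its arrays overlapped. The 3 VEGF receptors therefore took 3 courses: Flt4 higher, Flt1 lower and Kdr not called.

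In the wider VEGF and angiopoietin system 5 of 22 genes were higher and 8 lower (median -0.08, shared 3 and 6). Angpt2, a ligand of TIE2 that acts in lymphatic growth, was higher (0.84 ± 0.10), and so were Vegfb (0.47 ± 0.06) and the peptide gene Adm (0.59 ± 0.13, adjusted p = 0.00561). Adm rested on col LEC, where it was at 1.57, against 0.40 in pre-col and -0.21 in cap LEC, and it lost its call with array weights and when only the groups compared were fitted (adjusted p = 0.348 in the latter). Its receptor gene Calcrl was at 0.29 ± 0.09 (adjusted p = 0.0427) and lost its call in 14 alternatives. Vegfc, the ligand of VEGFR-3, was named after its values were seen. It was lower in LEC, at 6.48, 6.61 and 6.98 against 8.61, 9.05 and 9.24 (-2.30 ± 0.13, adjusted p = 4.97e-08).

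Arterial and venous lists were mostly lower. Of 15 venous genes, 9 were lower and 1, Nr2f2, higher (median -0.91, shared 1 and 9). The leukocyte and platelet ligands led, with Selp, encoding P-selectin, at 6.69, 7.0 and 7.47 in LEC and 11.45, 10.98 and 11.32 in BEC (-4.24 ± 0.14, adjusted p = 8.18e-10). Vwf, the platelet-tethering von Willebrand factor, was at 6.81, 7.28 and 7.84 against 10.98, 11.14 and 11.12 (-3.80 ± 0.13). Neither gene overlapped between classes. Of 20 arterial genes, 12 were lower and 6 higher (median -0.82, shared 5 and 11). Mgp, an inhibitor of calcification (-3.73 ± 0.21), the chemokine gene Cxcl12 (-3.67 ± 0.14) and Sema3g (-2.27 ± 0.15) were lower, while the microtubule regulator gene Stmn2 (1.89 ± 0.13), the kinase gene Bmx (1.24 ± 0.12), the elastic fibre gene Fbln5 (1.02 ± 0.11) and the connexin gene Gja4 (0.47 ± 0.08) were higher.

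Of 29 pan-endothelial genes, 17 were lower and 4 higher (median -0.44, shared 3 and 15). After cyclic loess, another scaling between arrays, 22 were lower and 2 higher. Cd93 (-2.74 ± 0.11), Esam (-2.48 ± 0.14) and Clec14a (-2.18 ± 0.16), a set of endothelial adhesion and lectin-like receptors, were lower with Sox17. Higher were the tight junction gene Cldn5 (1.02 ± 0.11, adjusted p = 1.7e-05), the transcription factor genes Lyl1 (0.80 ± 0.12) and Tal1 (0.28 ± 0.06), and Calcrl.

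**Figure D3:**
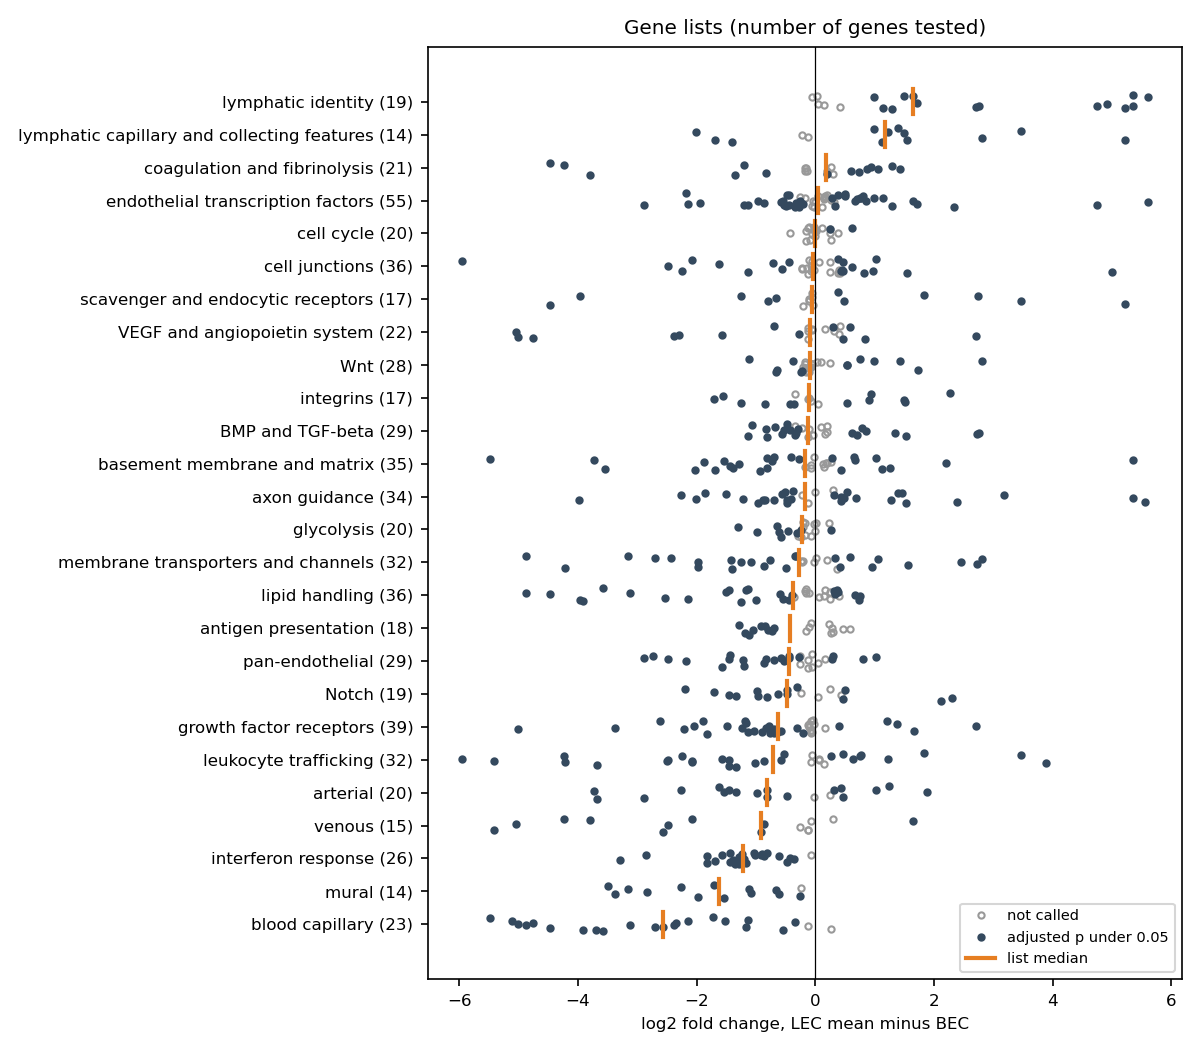
Log2 fold change of each tested member of 25 pathway lists and of the mural marker list, LEC mean minus BEC on the horizontal axis, with called genes filled, others open, and the list median as an orange bar. The lists are ordered by median, from lymphatic identity at 1.65 down to mural at -1.61 and blood capillary at -2.56.

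Notch genes, which pattern arteries and sprouts, were lower in 11 of 19 and higher in 4 (median -0.47, shared 3 and 10). Among the receptors Notch2 was higher, at 9.80, 10.02 and 10.37 in LEC and 7.75, 7.82 and 7.72 in BEC (2.31 ± 0.09, adjusted p = 1.82e-09). Notch4 was lower, at 7.97, 8.03 and 8.15 against 9.50, 9.56 and 9.47 (-1.46 ± 0.06). Notch3 was lower too (-1.70 ± 0.09) and is also a mural marker, and Notch1 was not called (0.24 ± 0.10, adjusted p = 0.104). Both Notch2 and Notch4 had no overlap between classes. The ligand gene Jag2 (-1.34 ± 0.06) and the sugar transferase gene Mfng, which modifies Notch receptors (-2.20 ± 0.14), were lower, while the regulator gene Dtx1 (2.12 ± 0.08) and the target Hes1 (0.50 ± 0.09) were higher.

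In the BMP and TGF-beta list 8 of 29 were higher and 12 lower (median -0.13, shared 7 and 8). Among the higher genes, the ligand gene Tgfb3 was at 11.76, 12.10 and 12.25 in LEC against 9.56, 9.15 and 9.18 in BEC (2.72 ± 0.11, adjusted p = 2.66e-09), the ligand gene Tgfb2 differed by 1.35 ± 0.10 and the receptor gene Tgfbr2 by 1.52 ± 0.08. Gdf10, another family ligand, differed by 2.75 ± 0.19. Among the lower genes were the co-receptor gene Eng (-0.83 ± 0.10), the ligand gene Bmp6 (-0.82 ± 0.12) and Id1 (-1.13 ± 0.08) and Smad7 (-1.06 ± 0.09), genes that the pathway induces.

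Wnt genes had 7 of 28 higher and 6 lower (median -0.09, shared 6 and 1), and 7 higher and 3 lower without the mixed arrays. Rspo3, an amplifier of Wnt signals, was at 7.08, 8.56 and 9.19 in LEC and 5.39, 5.62 and 5.40 in BEC (2.80 ± 0.14, adjusted p = 1.65e-08). The coreceptor gene Adgra2 (1.73 ± 0.09) and the secreted protein gene Dkk3 (1.43 ± 0.11) were higher, and the Norrin receptor gene Fzd4 was lower (-1.11 ± 0.12). The lower calls of Fzd8 (-0.66 ± 0.21, adjusted p = 0.0428), Dkk2 (-0.64 ± 0.17) and Lef1 (-0.37 ± 0.10) ended in 13, 3 and 3 alternatives.

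Guidance molecules were called in 30 of 34 genes (88.24%, against 22.6% of all genes), 14 higher and 16 lower (median -0.18, shared 10 and 13). Sema3a, a secreted repellent, was at 9.31, 9.68 and 10.03 in LEC against 6.35, 6.29 and 6.87 in BEC (3.18 ± 0.12, adjusted p = 2.31e-09). Ntn1, netrin-1, was at 9.99, 10.33 and 10.59 against 7.81, 7.78 and 8.25 (2.39 ± 0.11), and its receptor gene Neo1 was higher by 1.40 ± 0.11. Sema7a, a membrane-anchored semaphorin, was lower, at 7.21, 7.59 and 8.06 against 11.61, 11.66 and 11.32 (-3.98 ± 0.12, adjusted p = 4e-10). Of the class 3 semaphorins named here, Sema3d and Sema3a were higher and Sema3g lower. Of the B-type ephrins Efnb2 was higher (0.43 ± 0.07), Efnb1 lower (-1.85 ± 0.15) and Efnb3 not called (-0.06 ± 0.07).

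Cell junction genes were higher in 11 of 36 and lower in 9 (median -0.04, shared 8 and 8). The 4 highest were the polarity genes Pard6g and Pard3 (0.98 ± 0.08) and the claudin genes Cldn5 and Cldn11 (1.55 ± 0.11). In the JAM family F11r, encoding JAM-A, was higher (0.46 ± 0.10), whereas Jam2, Jam3 (-2.24 ± 0.16) and Esam were lower. Among connexins Gja4 was higher, Gja5 lower (-1.63 ± 0.27), and Gja1 (-0.22 ± 0.12) and Gjc1 (-0.02 ± 0.06) were not called. Gja5 overlapped between classes, since pre-col LEC lay at -1.11 against BEC and the highest LEC array at 8.48, above the lowest BEC array at 8.22. Of the claudins Cldn15 was lower (-1.61 ± 0.14) and Cldn12 not called (-0.14 ± 0.08).

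Among basement membrane and matrix genes 17 of 35 were lower and 9 higher (median -0.17, shared 9 and 16). The vascular basement membrane collagen gene Col15a1 was at 7.03, 7.33 and 7.54 in LEC and 10.71, 11.04 and 10.91 in BEC (-3.54 ± 0.10, adjusted p = 3.43e-10), and Sparc, a collagen-binding glycoprotein, differed by -2.02 ± 0.13. Higher were Tnxb, tenascin-X (2.20 ± 0.08), Col18a1, the parent chain of endostatin (1.25 ± 0.10) and the fibronectin gene Fn1 (1.13 ± 0.09). The laminin alpha chains divided, with Lama4 higher (0.67 ± 0.10), Lama5 (-1.69 ± 0.10), Lama3 (-1.88 ± 0.11) and Lama2 (-0.83 ± 0.09) lower and Lama1 not called (-0.09 ± 0.06). The multimerins divided too: Mmrn1 was higher (5.36, and 6.46 without the 2 mixed arrays) and Mmrn2 lower (-1.43 ± 0.09).

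Integrins, the receptors for this matrix, had 6 of 17 higher and 6 lower (median -0.11, shared 5 and 4). Itgb3 was at 9.20, 9.50 and 9.70 in LEC against 7.01, 7.32 and 7.46 in BEC (2.27 ± 0.10, adjusted p = 5.24e-09), and its partner chain Itgav was higher by 1.51 ± 0.10. Itga9 (1.50 ± 0.09), whose product binds a splice form of fibronectin in lymphatic valves, and Itgb8 (0.94 ± 0.19) followed. Lower were Itgb5 (-1.71 ± 0.10), the collagen receptor chain Itga2 (-1.55 ± 0.14) and the laminin receptor chains Itga7 (-1.26 ± 0.10) and Itga6 (-0.84 ± 0.09).

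Leukocyte trafficking genes followed the class of vessel. Of 32, 18 were lower and 9 higher (median -0.72, shared 5 and 18). Besides Jam2, Sele and Selp, the sialomucin gene Cd34 was lower, at 7.22, 7.56 and 8.62 in LEC and 11.84, 11.96 and 11.82 in BEC (-4.22 ± 0.22, adjusted p = 3.23e-08). Higher, besides Il7, were Mrc1, a mannose receptor, Stab1, a scavenger receptor on which lymphocytes adhere (1.83 ± 0.11), and the chemokine scavenger Ackr2 (1.22 ± 0.15). Of the atypical chemokine receptors, Ackr2 and Ackr3 (0.75 ± 0.14) were higher in the mean but not called in col LEC (adjusted p = 0.0993 and 0.305), and Ackr1, which presents chemokines in venules, was lower (-2.48 ± 0.19) and shared. Ackr1 was at 6.51, 6.68 and 7.77 against 9.16, 9.11 and 9.45, while Ackr3 overlapped between classes.

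Interferon response genes were lower almost without exception. Of 26 tested, 0 were higher and 25 lower, with a median of -1.21, and 21 were shared by the 3 groups. Their mean level was 7.62 to 7.75 in col LEC, 7.55 to 7.90 in pre-col LEC, 7.65 to 7.73 in cap LEC and 8.91 to 8.98 in BEC. Without the 2 mixed arrays 23 were lower, and with replicates 1 and 3 alone 22. The BEC arrays also had the higher mural level given above, whose part in this result was not tested.

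Rsad2, an antiviral enzyme known as viperin, was at 5.63, 6.21 and 6.94 in LEC and 9.54, 9.66 and 9.46 in BEC (-3.29 ± 0.21, adjusted p = 2.03e-07). Iigp1, an interferon-inducible GTPase, was at 6.38, 6.98 and 7.36 against 10.35, 9.46 and 9.69 (-2.86 ± 0.23). Irf7, the transcription factor that amplifies the response, was at 7.60, 7.80 and 8.02 against 9.52, 9.52 and 9.77 (-1.82 ± 0.09), and Gbp4, a guanylate-binding protein, differed by -1.83 ± 0.14. These 4 genes had no overlap between classes. Ifit2 was the 1 gene not called (-0.07 ± 0.16, adjusted p = 0.77).

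**Figure D4:**
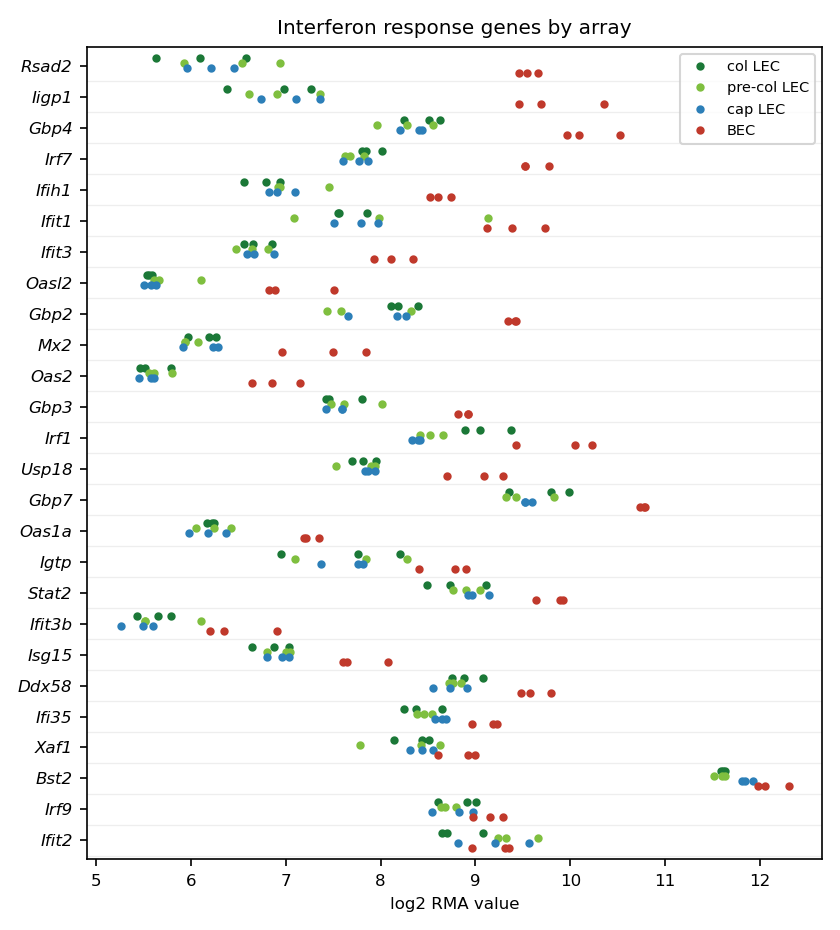
Log2 RMA value on each array for the 26 interferon response genes tested, ordered by log2 fold change, with 1 point per array coloured by group. The BEC points lie to the right of all LEC points in Rsad2, where they sit between 9.46 and 9.66 against 5.63 to 6.94, and overlap them in Ifit2 at the foot of the plot.

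Interferon-stimulated genes are switched on through the interferon-stimulated response element, to which IRF and STAT factors bind. Promoters of the list were searched on both strands for the letters GAAANNGAAA, read as TTTCNNTTTC on the other strand, a search chosen after the list's values were seen. Promoter windows were RefSeq's on GRCm38.p6, from 250 bases before to 50 after the annotated start. The letters were present in 14 of 21 interferon genes with a window (66.7%), in 1131 of 32851 windows in all (3.44%) and in 423 of 12270 tested genes with a window (3.45%). They were present in 2 of 13 antigen presentation genes (15.4%), 1 of 13 lymphatic identity genes (7.69%) and 0 of 16 blood capillary genes. The interferon list was drawn up from genes known to respond to interferon, so its high share was built in and does not bear on LEC against BEC. A match describes these letters and is no evidence of binding in these cells.

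The stretches just upstream of the start show how the letters sit in 4 of the genes that were lower in LEC, each from a different antiviral family, with matches in capitals and the strand of the gene read 5′ to 3′. Rsad2 lies at chr12:26456453-26456612 on the minus strand, Isg15, a ubiquitin-like protein, at chr4:156200819-156200978 on the minus strand, Ifit1, which binds viral RNA, at chr19:34640729-34640888 on the plus strand and Gbp2, a guanylate-binding protein, at chr3:142620503-142620662 on the plus strand.
Rsad2: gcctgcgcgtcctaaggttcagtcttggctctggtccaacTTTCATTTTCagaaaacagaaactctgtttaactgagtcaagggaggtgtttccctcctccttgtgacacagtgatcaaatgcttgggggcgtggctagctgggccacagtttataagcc
Isg15: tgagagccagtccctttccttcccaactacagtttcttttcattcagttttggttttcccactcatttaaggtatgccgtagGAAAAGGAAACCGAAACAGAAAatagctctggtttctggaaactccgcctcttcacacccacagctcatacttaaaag
Ifit1: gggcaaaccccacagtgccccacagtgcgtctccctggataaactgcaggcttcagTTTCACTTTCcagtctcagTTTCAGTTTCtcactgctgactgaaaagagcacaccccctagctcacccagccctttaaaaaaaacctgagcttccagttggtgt
Gbp2: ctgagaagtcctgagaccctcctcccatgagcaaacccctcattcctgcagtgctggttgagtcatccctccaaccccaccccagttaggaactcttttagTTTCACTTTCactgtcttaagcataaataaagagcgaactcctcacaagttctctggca

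Isg15 and Ifit1 held 3 and 2 matches in this stretch, the 3 of Isg15 overlapping in a single run. Rsad2 and Gbp2 held 1 each. Isg15 was at 6.65, 6.96 and 7.05 in LEC and 7.60, 8.08 and 7.65 in BEC (-0.87 ± 0.11, adjusted p = 0.000116). Gbp2 was at 7.44, 8.17 and 8.39 against 9.42, 9.43 and 9.34 (-1.38 ± 0.17, adjusted p = 7.46e-05). Ifit1 was at 7.09, 7.79 and 9.13 against 9.73, 9.12 and 9.38 (-1.58 ± 0.31, adjusted p = 0.00261), and the array at 9.13, pre-col LEC replicate 1, overlapped BEC. Isg15, Ifit1 and Gbp2 were chosen for display after their values were seen.

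Antigen presentation genes were lower in part. A difference between the class I and class II routes was not tested. Of 18 genes, 9 were lower and 0 higher (median -0.42), and the 9, all shared, belonged to the class I route. They included the immunoproteasome genes Psmb8 (-1.29 ± 0.14) and Psmb9 (-1.11 ± 0.10), the peptide transporter gene Tap1 (-1.19 ± 0.16) and the class I heavy chain gene H2-K1 (-1.05 ± 0.07). H2-K1 was at 9.73, 9.89 and 10.18 in LEC against 10.95, 10.99 and 10.91 in BEC, and it belongs to a family of close copies that may share probes. Without the 2 mixed arrays 9 were lower and 1 higher.

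Lipid handling had 18 of 36 genes lower and 7 higher (median -0.37, shared 3 and 15). Scarb1, the receptor for high density lipoprotein, was at 8.02, 8.15 and 8.33 in LEC and 12.12, 12.18 and 12.08 in BEC (-3.96 ± 0.06, adjusted p = 7.04e-12). Fabp4, a fatty acid chaperone, was at 5.79, 7.88 and 8.70 against 11.87, 11.38 and 11.27 (-3.91 ± 0.40, adjusted p = 1.44e-05). Scarb1 varied little between the LEC arrays and Fabp4 widely, with neither reaching BEC. Higher were the cholesterol exporter gene Abca1 (0.76 ± 0.07), the lipoprotein receptor gene Vldlr (0.74 ± 0.11) and the fatty acid oxidation gene Acadm (0.67 ± 0.13). Without the 2 mixed arrays 4 were higher and 17 lower, and without BEC replicate 1 alone 4 were higher.

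Scavenger receptors took both directions, with 6 of 17 higher and 5 lower (median -0.05, shared 5 and 5). Colec12, a collectin-type scavenger receptor, was at 9.45, 9.87 and 10.16 in LEC and 7.27, 6.81 and 7.24 in BEC (2.74 ± 0.10, adjusted p = 1.56e-09). Mrc1, Stab1 and Lyve1 were higher with it, and Cd36, Scarb1, Lrp1 (-1.25 ± 0.22) and Clec1a (-0.79 ± 0.11) were lower. The hyaluronan receptors divided, with Lyve1, a sort gene, higher and Cd44 lower (-1.33 ± 0.09), at 5.92, 6.10 and 6.34 against 7.47, 7.35 and 7.53.

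Coagulation and fibrinolysis genes were higher in 8 of 21 and lower in 6 (median 0.19, shared 7 and 6). F8, the gene of coagulation factor VIII, was at 7.07, 7.60 and 8.12 in LEC against 6.18, 6.22 and 6.21 in BEC (1.42 ± 0.14, adjusted p = 1.24e-05), while Vwf, whose product carries factor VIII in blood, was lower as given above. The thrombin receptor gene F2r (1.30 ± 0.10), the urokinase receptor gene Plaur (1.06 ± 0.16) and the anticoagulant protein S gene Pros1 (0.93 ± 0.10) were higher. Entpd1 and Nt5e (-1.35 ± 0.14), successive enzymes that turn ATP into adenosine outside the cell, were lower.

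Of 32 transporters and channels, 16 were lower and 9 higher (median -0.28, shared 7 and 12). The efflux pump gene Abcb1a, a marker of vascular barriers, was at 6.03, 6.45 and 6.63 in LEC and 10.96, 10.51 and 10.34 in BEC (-4.21 ± 0.12, adjusted p = 3.43e-10). Abcc9 was lower (-3.16 ± 0.21) and is also a pericyte marker. The stretch-activated channel gene Piezo2 was higher, at 8.14, 9.30 and 9.82 against 5.85, 6.24 and 6.63 (2.80 ± 0.14, adjusted p = 2.69e-08), and so were the potassium channel gene Kcnn3 (2.72 ± 0.08) and the solute carrier genes Slc45a3 (2.45 ± 0.13) and Slco3a1 (1.57 ± 0.07).

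Growth factor and cytokine receptors were lower in 23 of 39 and higher in 5 (median -0.63, shared 5 and 17). Besides Flt4, the 5 higher genes included the hepatocyte growth factor receptor gene Met (1.67 ± 0.13), Fgfr1 (1.37 ± 0.09) and the interleukin-6 receptor gene Il6ra (1.21 ± 0.19, overlapping between classes). The receptor tyrosine kinase genes Ret (-2.61 ± 0.14) and Kit (-2.21 ± 0.14) were lower, and Kit had its ligand gene Kitl lower as well. Kit was at 6.62, 7.12 and 7.23 in LEC against 9.11, 9.48 and 9.16 in BEC.

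Metabolic and state-related lists came last. Called shares were 45% for glycolysis, 44.44% for immediate early and dissociation genes and 10% for cell cycle genes, against 22.6% of all genes. Of 20 glycolysis genes 8 were lower and 1 higher (median -0.23, shared 0 and 5), with Pdk4 (-1.30 ± 0.20), the glycolytic activator gene Pfkfb3 (-0.99 ± 0.19) and Ldha (-0.65 ± 0.08) lower, and 10 were lower without the mixed arrays. Only Nusap1 and Tyms of 20 cell cycle genes were called, both higher and neither shared. Neither call was kept without the mixed arrays, with the replicate number as a block, or in most fits that left out 1 array. Of 27 immediate early and dissociation genes, which respond to cell handling, 9 were lower (4 shared), among them Nr4a1 (-1.49 ± 0.17) and Fosl2 (-1.14 ± 0.10), and 3 were higher (2 shared), led by the chaperone gene Hsph1 (1.05 ± 0.15). None of 5 mitochondrially encoded genes was called.

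The shared genes were then compared among the LEC groups themselves. An F-test over the 3 LEC groups called 190 genes (0.965%) of all tested, 61 of the 1061 shared higher genes (5.75%) and 26 of the 1231 shared lower genes (2.11%). The median range of the 3 LEC group means was 0.20 in the higher, 0.17 in the lower and 0.14 in all genes. The F-test count was 103 without col LEC replicate 1 and 111 without replicate 2, and 125, 117 and 118 without cap LEC replicates 1, 2 and 3. It was 18 with replicates 1 and 3 alone. Of 14 genes listed for lymphatic capillary or collecting vessel features, 9 were higher and 3 lower than in BEC (median 1.175, shared 8 and 2), and 9 differed among the LEC groups.

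Several shared genes, which by definition stay on one side of BEC, graded with the LYVE1 gate. Mrc1 was at 7.99, 9.28 and 10.29 in LEC and 5.79, 5.75 and 5.84 in BEC, with log2 fold changes of 2.44 in col, 3.64 in pre-col and 4.32 in cap LEC (F-test adjusted p = 0.000289). Cldn11, a tight junction gene, ran the other way, with 2.32, 1.60 and 0.74, as did the ligand gene Gdf10 with 3.61, 3.09 and 1.54. Among the lower genes Cd93 was nearest to BEC in col LEC (-1.91) and farthest in cap LEC (-3.62), whereas Aqp1 was farthest in col LEC (-4.02 against -1.94 in cap LEC, F-test adjusted p = 4e-06). Epha4, an ephrin receptor gene, was at -1.17 in col LEC and -2.72 in cap LEC, and Dysf, a membrane repair gene, at -2.16 and -0.58.

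Other genes were at nearly the same level in all LEC groups. Tmod2, which caps actin filaments, differed from BEC by 3.22 in col, 3.26 in pre-col and 3.22 in cap LEC, and the membrane glycoprotein gene Gpm6a by 3.54, 3.51 and 3.47. Zfpm2, a GATA cofactor gene, was at 2.0, 2.03 and 2.06, and the cytoskeletal adducin gene Add3 at 2.49, 2.54 and 2.57. Lower in equal measure were the metalloprotease gene Adam15 (-2.21, -2.23 and -2.24), the latrophilin gene Adgrl2 (-2.18, -2.21 and -2.24) and Stk10, a kinase gene (-2.15, -2.18 and -2.15). These were chosen for their narrow range among shared genes with at least a 4-fold difference, so the evenness is a description. Slco2a1, the prostaglandin transporter gene, was lower in the mean of the groups but not in each: it was at -0.09 in col, -1.71 in pre-col and -2.44 in cap LEC, and is not a shared gene.

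**Figure D5:**
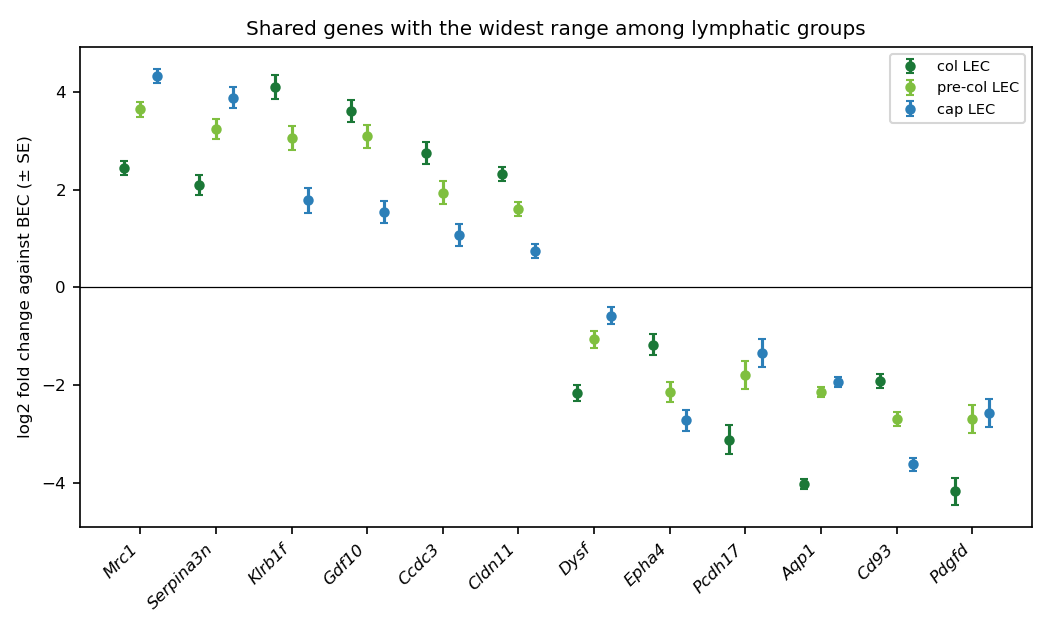
Log2 fold change against BEC in col, pre-col and cap LEC (± SE) for 12 shared genes that also passed the F-test. They have the widest range among the LEC groups within their direction, in equal number higher and lower, with sort genes and predicted genes left out. Mrc1 and Serpina3n increase from col to cap LEC, and Klrb1f, Gdf10, Ccdc3 and Cldn11 decrease. All 12 genes stay on one side of 0 in every group, as shared genes do by definition. Klrb1f and Serpina3n belong to families of close copies.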

How the data were processed

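The deposited log2 values, made by the authors with RMA per the submitters' processing notes, covered 72688 rows on 12 arrays; the software version is not given in the sources used here. Labelled cDNA came from picogram amounts of total RNA, per the labels' protocols, so amplification could affect dim genes most. Rows were named from the platform annotation, with symbols updated through RefSeq's gene table (GRCm38.p6); rows that name more than 1 gene were left out, and with them Ccl21a, Nrp1 and Egfl7, not analysed here. The brightest row stood for each of 30755 genes, and 19684 lay above their array's median on at least 3 arrays. limma 3.58.1 in R 4.3.3 fitted the 4 groups (8 residual degrees of freedom), each LEC group weighing equally, with Benjamini-Hochberg adjustment over all genes tested. A gene was shared when called in the same direction in all 3 LEC groups, which share the BEC arrays. Scripts were tested on simulated data.

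The members and lists were chosen with earlier results of these data known. Genes were named by rule. These were the 14 largest differences each way among shared genes whose arrays did not overlap, sort and predicted genes aside. Up to 4 called genes each way per list followed, and families with members called in both directions. Last were 12 shared genes of widest range, called by the F-test, and 12 of narrowest range with at least a 4-fold difference. Both of these sets were taken in equal number each way, sort and predicted genes aside. Other names were chosen after their values were seen. The alternatives were the scaling, filter, choice of row, array weights, intensity trend, groups fitted, replicate block and leaving out each array; 2 more (without the mixed arrays; replicates 1 and 3 alone) were added after seeing the data. Same-numbered arrays deviated together with correlations of -0.094 to 0.209 (median 0.0915, 18 pairs) against -0.143 to 0.176 for different numbers (median -0.0345, 36 pairs). Not every pair was over 0.1 and no label pairs the numbers, so they were not treated as pairs, although Xist and Y-linked genes set replicate 2 apart in every group.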

Additional observations from a re-analysis of the deposited data

Results flagged for a closer look

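Limma's F-test called a difference among the LEC groups in 87 shared genes. Of these, 12 are given here by the range of the 3 LEC group means in log2 units. They had the widest range within their direction, in equal number higher and lower, with sort genes and predicted genes left out. The ranges were 2.32 for Klrb1f, 2.07 for Gdf10, 2.07 for Aqp1, 1.88 for Mrc1, 1.79 for Serpina3n, 1.77 for Pcdh17, 1.71 for Cd93, 1.69 for Ccdc3, 1.60 for Pdgfd, 1.59 for Cldn11, 1.58 for Dysf and 1.56 for Epha4.

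In 13 further genes col LEC and cap LEC lay on opposite sides of BEC, each called against it, and the F-test called them as well. Parm1 was at 1.41 in col LEC and -0.65 in cap LEC against BEC, and its range was 2.07. Enpp3, an ectonucleotidase gene, ran the other way at -0.80 and 1.21, with a range of 2.01. The ligand gene Bmp4 was at 0.52 and -0.75 (range 1.27), the transcription factor gene Gata6 at 0.91 and -0.41 (range 1.32) and the polyamine enzyme gene Odc1 at 0.78 and -0.76 (range 1.53). The transporter gene Slco2b1 was at -0.56 and 0.84 (range 1.40), Asap1 at -0.46 and 0.37 (range 0.82), Rab31 at -0.42 and 0.45 (range 0.87) and the microfibril gene Mfap2 at 0.42 and -0.42 (range 0.84). The remaining 4 were predicted genes, Gm15470 with a range of 1.17, Gm17709 with 1.50, Gm7278 with 1.17 and Gm9115 with 1.52, all higher in col LEC.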

How the results depend on the processing

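Of 214 called genes picked by the naming rule or named outside it, 188 kept their call in each of the 22 alternatives that tested them (the stricter filter left 18 untested), 26 lost it in at least 1, 17 of them on leaving out 1 array, and 0 reversed. Nrp2, not called, was called in 6 alternatives, Btnl9 in 2 and Hhex in 1, and such gains were not limited to these genes. Of 5 mitochondrially encoded genes, 1 was called higher with replicates 1 and 3 alone. With replicates 1 and 3 alone, 2044 genes were called in col LEC, 2527 in cap LEC and 1512 were shared. Among the LEC groups 18 genes were called in that setting, where array weights gave 520. The first setting has fewer arrays and also drops replicate 2, the low-Xist array of every group. These changes cannot be told apart. For array weights the cause was not tested. Leaving out 1 array gave 3403 to 4413 genes called in the LEC mean, 2495 to 3355 in col LEC, 2432 to 3132 in pre-col LEC, 2996 to 4230 in cap LEC, 1962 to 2368 shared and 103 to 208 among the LEC groups. With the replicate number as a block, a pairing the labels do not state, the counts were 4458, 3233, 3099, 4063, 2346 and 211, in the same order. With replicates 1 and 3 alone the lower BMP and TGF-beta genes numbered 7, the lower Wnt genes 2, the higher junction genes 7 and the higher pan-endothelial genes 2. Cyclic loess moved the share of higher calls from 53.2% to 45.5%. With 3 arrays a group and BEC replicate 1 mixed, levels of lymphatic genes in BEC are imprecise.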

Other observations

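Xist, the RNA of the inactive X chromosome in females, was at 5.30 to 5.64 in replicate 2 of every group and at 10.41 to 11.47 in replicates 1 and 3. The Y-linked genes Uty, Kdm5d and Eif2s3y were higher in replicate 2. The arrays with low Xist were spread evenly over the 4 groups.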
